A study of Mus musculus with 17 samples.

Results

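The comparison described here sets alveolar epithelial type 2 (AT2) cells from mice 14 days after bleomycin against AT2 cells from naive mice, across all genes counted by total-RNA sequencing. It rests on 9 of the 17 libraries of the series, chosen by their labels: 4 naive libraries (naive 1 to 4) and 5 bleomycin libraries (bleomycin 1 to 5). All 9 are labelled as sorted AT2 cells of C57BL/6J mice aged 2 months, and no transgene or deletion is named for either group. Both groups also carry the word saline in their titles and vehicle as treatment, so bleomycin is the labelled difference between them, while its dose and route are not stated in the labels. The labels do not say whether the libraries of a group came from separate mice, so p-values measure the spread between these libraries, which may be technical. The other 8 libraries were made with a different kit and are not used here.

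Bleomycin is a DNA-damaging drug that injures the lung epithelium and is followed by fibrosis. AT2 cells make, store and secrete surfactant, the lipid and protein film that keeps alveoli open, and they are also the stem cells of the alveolus. After injury they divide and give rise to the flat alveolar type 1 (AT1) cells of gas exchange, and many pass through a transitional state marked by keratin 8, clusterin and p53 target genes. Ligands and integrins of the transforming growth factor beta (TGF-beta) pathway, made in part by such cells, act on the fibroblasts that lay down scar matrix.

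Levels are CPM, read counts scaled by edgeR to a common library size, which compare a gene between libraries but not genes with each other, since they are not divided by gene length. A change given without a unit is a log2 fold change, and a rise or fall is named only for a called gene. A gene was called where the edgeR quasi-likelihood test gave a Benjamini-Hochberg adjusted p under 0.05 over all genes tested. Libraries held 3295257 to 6333166 counts, models resembling ribosomal RNA accounted for 6.35% to 20.2% of them, and the common biological coefficient of variation was 21.1%. Of 11223 genes tested, 2304 were called (20.5%), of which 1259 were higher (11.2%) and 1045 lower (9.31%) after bleomycin. In 2212 genes (19.7%) the 2 groups did not overlap: bleomycin libraries lay wholly above naive libraries in 10.4% of genes and wholly below in 9.35%, and the median log2 fold change over all genes was 0.0026. Bleomycin 4, the library with the fewest genes detected (13940, against up to 19763), stood apart on the second principal component, which held 17.3% of the variance; without it 2432 genes were called. On simulated counts with these depths, 58.6% of changes of 1 on the log2 scale and 6.25% of changes of 0.5 were called, so a small change that was not called may still be present. The simulations held 191 and 192 tested genes with a change, far fewer than the 2304 called here. The share recovered depends on that number, so these percentages may not hold for these data. In bulk RNA, fewer cells of a type and less RNA per cell cannot be told apart.

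AT2 markers were abundant in every library and lowest in bleomycin 1 and 2. The 10 defining AT2 and epithelial markers, Sftpc to Nkx2-1 and Epcam, summed to 85364, 79303, 79437 and 78184 CPM in naive 1 to 4. In bleomycin 1 to 5 they summed to 47454, 56405, 83060.3, 70214 and 73870.5 CPM. Only Nkx2-1 among these 10 was called (10%, beside 20.5% of all genes). Of 21 macrophage and monocyte markers, 6 were tested and Cd14, which epithelium can also express, was called higher (16.7%, beside 20.5% of all genes). Marco and C1qa had no count in any library. Without Lyz2, which AT2 cells express, the macrophage sum was 32.7 to 54.3 CPM in naive and 57.2 to 84.2 CPM in bleomycin libraries. Neutrophil markers summed to at most 1.8 CPM, with S100a8, Ly6g, Ngp and Camp at 0 in all 9.

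Bleomycin 2 had the highest summed levels of ciliated and fibroblast markers. Ciliated markers other than Tppp3 summed to 34.5, 30.8, 30.6 and 12.5 CPM in naive 1 to 4 and 101, 184, 46.9, 43.9 and 48.5 CPM in bleomycin 1 to 5, and 4 of 8 tested were called higher (Foxj1, Dnah5, Ccdc153 and Ccdc113, of 9 markers). Fibroblast markers other than Col6a1 summed to 16.4, 10.04, 10.2 and 5.96 CPM in naive 1 to 4 and 61.4, 127, 19.5, 33.1 and 28 CPM in bleomycin 1 to 5. Of 13 fibroblast markers 5 were tested and 4 were called higher, Col1a1, Col1a2, Col3a1 and Col6a1, while Lum was at 0 in all libraries. Endothelial markers other than Vwf summed to 19.97 to 34.2 CPM in naive and 24.3 to 65.7 CPM in bleomycin libraries, with Vwf and Cdh5 called of 6 tested. The mesothelial marker Msln was called higher, and its list of 5 summed to 0.298 to 5.34 CPM in naive and 3.44 to 23.6 CPM in bleomycin libraries. Of club and airway secretory markers 1 of 6 tested was called, Aldh1a1, and without Scgb1a1 they summed to 99.5 to 173 CPM in naive and 137 to 359 CPM in bleomycin libraries. Called shares were 50% of ciliated, 80% of fibroblast, 33.3% of endothelial and 16.7% of club markers tested, beside 20.5% of all genes. Each share rests on few markers, and a marker could pass the filter through 1 group alone. Of 15 lymphocyte markers 1 was tested (Cd79b, not called), and no basal or erythroid marker passed the filter. The part of these cells' RNA in the gene groups below was not tested.

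Called genes of the AT2 identity and surfactant list were divided between rises and falls. Among 26 tested AT2 identity and surfactant genes, 5 rose, 5 fell and 16 were not called, with a median log2 fold change of -0.18; 38.5% were called, beside 20.5% of all genes. Of 27 listed genes, Pgc fell below the filter. Sftpc (surfactant protein C; ENSMUSG00000022097, chr14:70520949-70524081, GRCm38) stood at 42987, 36814, 36932 and 37372 CPM in naive 1 to 4 and 19347, 23416, 38494, 29468 and 31588 CPM in bleomycin 1 to 5. Its log2 fold change of -0.44 did not pass (adjusted p = 0.087), bleomycin 3 lay inside the naive range and bleomycin 1 and 2 lay lowest. Sftpb, Sftpa1 and the lamellar body lipid pump Abca3 had log2 fold changes of -0.10, -0.22 and -0.26 and were not called.

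The collectin Sftpd (ENSMUSG00000021795, chr14:41172214-41185149), which binds microbes, rose instead. It stood at 2783, 2440.2, 3057 and 2685 CPM in naive 1 to 4 and 3303, 3158, 5512, 4242 and 4206 CPM in bleomycin 1 to 5 (log2 fold change 0.58 ± 0.16 SE, adjusted p = 0.0133). All bleomycin libraries lay above all naive libraries, and the call was lost without naive 2 (adjusted p = 0.0525). The cell-surface mucin Muc1 and the endocytic receptor Lrp2 rose too, by 0.68 and 0.59 on the log2 scale.

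Nkx2-1, Foxa1 and Etv5, transcription factors that set lung and AT2 identity, were lower, while Foxa2 (-0.29) and Cebpa (-0.19) were not called. Nkx2-1 (ENSMUSG00000001496, chr12:56531958-56536908) stood at 352, 371, 378 and 385 CPM in naive 1 to 4 and 284, 256, 285, 223 and 300.4 CPM in bleomycin 1 to 5. The groups did not overlap (log2 fold change -0.46 ± 0.11 SE, adjusted p = 0.00685). Foxa1, a pioneer factor of endoderm, fell by 0.58 (adjusted p = 0.00729). Etv5, which maintains the AT2 state downstream of growth factor signalling, fell by 0.43 (adjusted p = 0.0199), a call lost with naive 1, 2 or 4 left out (adjusted p = 0.0519 to 0.0649). The fatty acid carrier Fabp5 had the largest fall of the list, with a log2 fold change of -0.89 (adjusted p = 0.00517). With 1 library left out, 3 to 6 list members rose and 3 to 7 fell: leaving out bleomycin 3 or any of naive 1 to 4 gave 3 rises, and leaving out naive 1, 2 or 4 gave 3 falls.

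**Figure D1:**
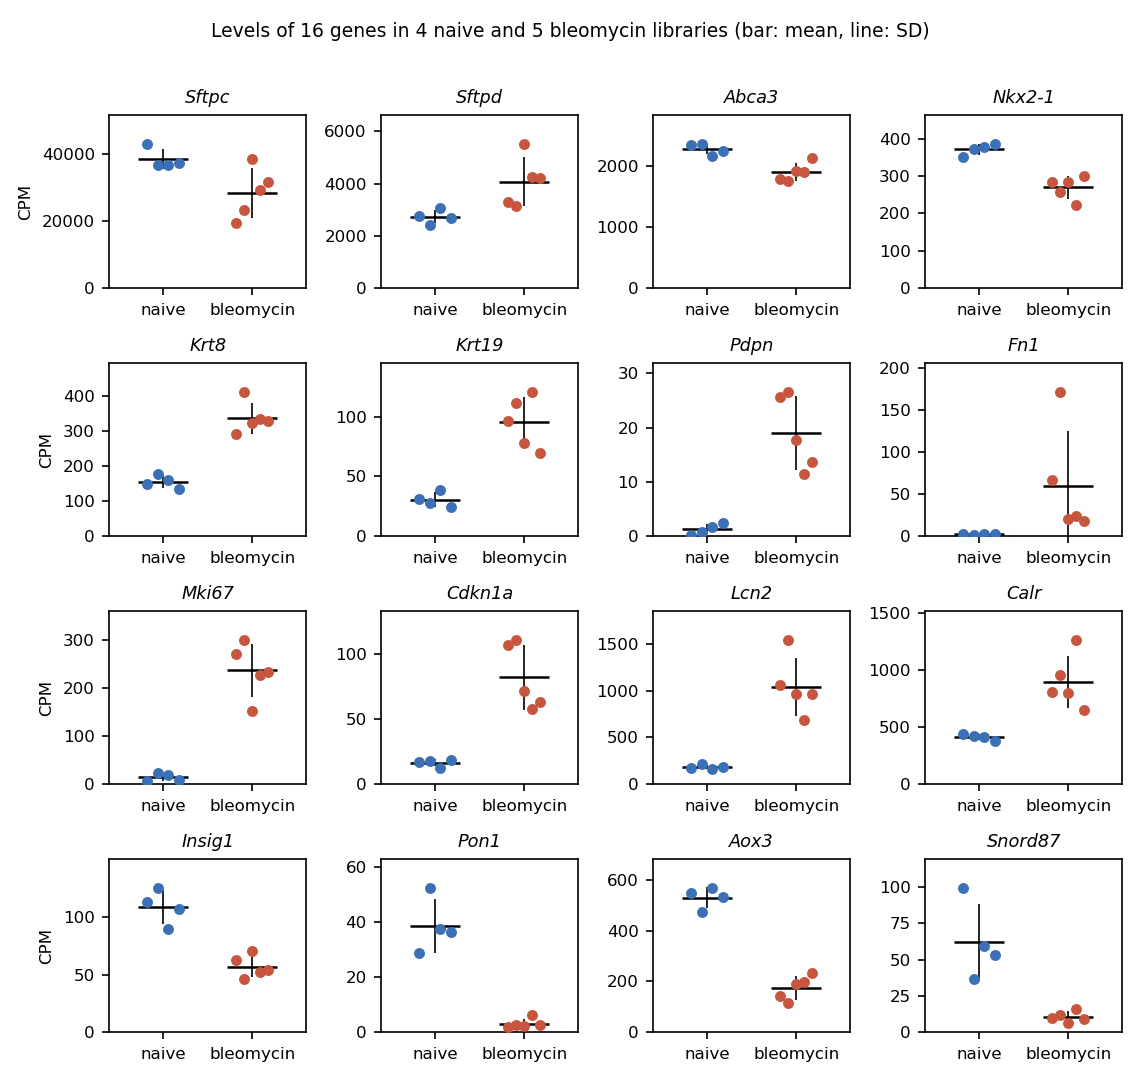
Each panel shows 1 gene, with CPM on a linear axis from 0 and 1 point per library (4 naive, blue; 5 bleomycin, red); the bar is the mean and the line the SD. Sftpc overlaps between groups, Nkx2-1 is lower in all 5 bleomycin libraries, and Krt8, Krt19, Pdpn, Mki67, Cdkn1a, Lcn2 and Calr are higher and Insig1, Pon1, Aox3 and Snord87 lower in all 5 than in any naive library.

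Genes of the transitional epithelial state and of AT1 cells rose broadly. Of 26 tested transitional genes (28 listed; Plaur and Krt17 below the filter), 21 rose and 1 fell, and the median log2 fold change was 1.18. Of 21 tested AT1 genes (22 listed), 13 rose and 1 fell, with a median of 0.59. Called shares were 84.6% of transitional and 66.7% of AT1 genes, beside 20.5% of all genes.

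Keratins of simple epithelium were higher. Krt8 (ENSMUSG00000049382, chr15:101996698-102004482) stood at 150.3, 178, 161 and 134 CPM in naive 1 to 4 and 291, 411, 323, 334 and 328 CPM in bleomycin 1 to 5 (log2 fold change 1.11 ± 0.13 SE, adjusted p = 7.33e-06). Krt19 stood at 31.2, 28.2, 38.7 and 24.4 CPM in naive 1 to 4 and 96.5, 111, 78, 120.4 and 70.00 CPM in bleomycin 1 to 5 (log2 fold change 1.63 ± 0.18 SE, adjusted p = 4.82e-06). Both keratins separated the groups with no overlap, and their partner Krt18 rose by 0.82 (adjusted p = 0.000219).

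Clusterin, a secreted chaperone, had the lowest p of all rises. Clu (ENSMUSG00000022037, chr14:65968483-65981547) rose from 103 ± 4.32 CPM (SD, n = 4) to 466 ± 61.4 CPM (SD, n = 5) (log2 fold change 2.18 ± 0.12 SE, adjusted p = 6.92e-09). The integrin subunit Itgb6, which with Itgav activates latent TGF-beta, rose from 16.6 ± 1.42 CPM (SD, n = 4) to 53.8 ± 17.6 CPM (SD, n = 5) (log2 fold change 1.69 ± 0.22 SE, adjusted p = 2.87e-05). Cldn4, a sealing claudin of tight junctions, was near the floor in naive libraries, with 8 counts in all, and stood at 0.335, 0.855, 0.30 and 0.596 CPM in naive 1 to 4 and 8.99, 26.7, 6.97, 5.57 and 7.44 CPM in bleomycin 1 to 5 (log2 fold change 4.28 ± 0.62 SE, adjusted p = 7.91e-05). Bleomycin 2 was far above the other bleomycin libraries in Cldn4.

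Among AT1 genes, the membrane glycoprotein Pdpn (ENSMUSG00000028583, chr4:143267431-143299564) changed most. It stood at 0.335, 0.855, 1.8 and 2.38 CPM in naive 1 to 4 and 25.7, 26.5, 17.8, 11.4 and 13.8 CPM in bleomycin 1 to 5 (log2 fold change 3.81 ± 0.42 SE, adjusted p = 4.93e-06). Hopx, a homeodomain cofactor of AT1 cells, rose from 7.26 ± 0.893 CPM (SD, n = 4) to 17.4 ± 4.31 CPM (SD, n = 5) (log2 fold change 1.27 ± 0.24 SE, adjusted p = 0.00117). Ager, the receptor that is among the most abundant AT1 transcripts, rose from 774 ± 110.2 CPM (SD, n = 4) to 1167 ± 146 CPM (SD, n = 5) (log2 fold change 0.59 ± 0.13 SE, adjusted p = 0.00364). The anchoring protein Akap5 rose by 2.09, the epithelial sodium channel subunit Scnn1g by 1.89 and the chloride channel protein Clic5 by 0.91. Cyp2b10 was the 1 AT1 list member called lower (-0.68); its groups overlapped, and without naive 2 it was not called (-0.50, adjusted p = 0.116). Rtkn2, Cav1 and Cldn18 were not called (1.1, 0.85 and 0.17). Krt7 and Timp3 are also members of the transitional or matrix lists.

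The list levels varied among bleomycin libraries. The mean log2 level of the transitional list, relative to the naive mean, was 1.47, 1.92, 1.23, 1.36 and 1.14 in bleomycin 1 to 5, and that of the AT1 list was 1.0, 1.05, 0.77, 0.63 and 0.65. The AT2 list stood at -0.46, -0.29, 0.12, -0.10 and 0.05 in the same libraries. Bleomycin 1 and 2, with the highest AT1 and transitional levels, had the lowest AT2 levels. Without bleomycin 2, 19 transitional genes rose and 1 fell, and 13 AT1 genes rose and 1 fell.

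**Figure D2:**
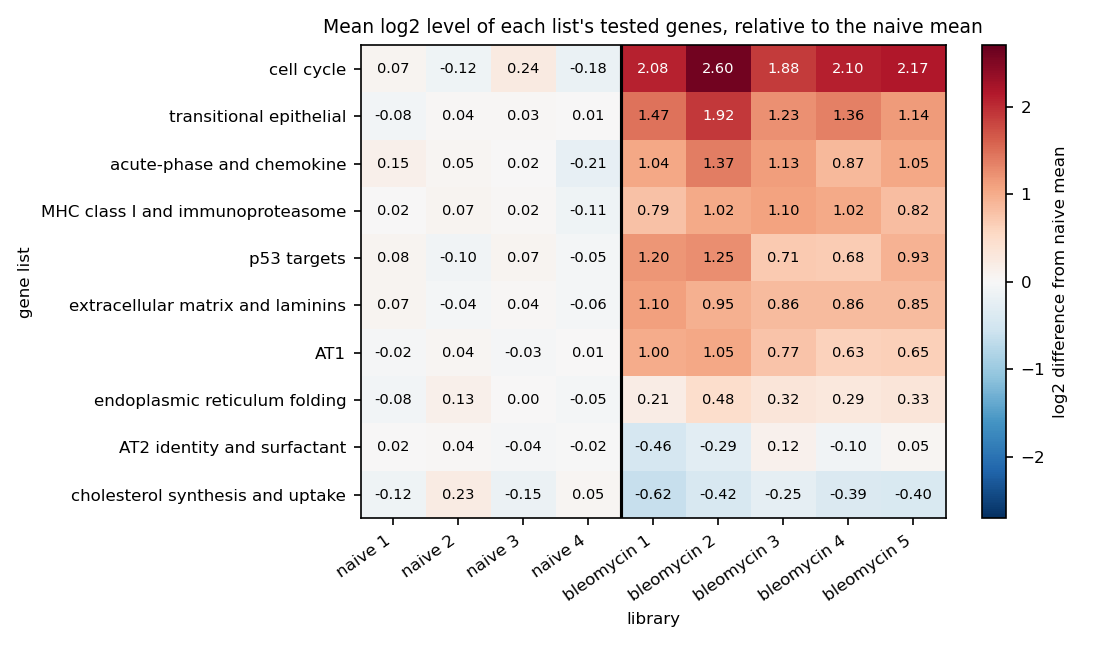
Rows are 10 gene lists and columns the 9 libraries; each cell prints the mean log2 level of a list's tested genes relative to the mean of the 4 naive libraries, coloured from blue (lower) to red (higher). The cell cycle row reaches 1.88 to 2.6 in bleomycin libraries, and the AT2 row is lowest in bleomycin 1 and 2.

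Cell cycle genes had the highest median of the 31 lists. Of 37 tested members (42 listed), 31 rose and none fell by edgeR, and the median log2 fold change was 2.3. In all 83.8% were called, beside 20.5% of all genes. Without bleomycin 2, 25 of 33 tested rose and the median was 1.93. Mki67 (ENSMUSG00000031004, chr7:135689784-135716361), a chromosome-coating protein of dividing cells, stood at 7.38, 22.9, 20.4 and 9.54 CPM in naive 1 to 4 and 272, 300.5, 153, 228 and 235 CPM in bleomycin 1 to 5 (log2 fold change 3.94 ± 0.27 SE, adjusted p = 7.15e-08). Top2a, the topoisomerase that untangles replicated DNA, rose from 8.05 ± 5.44 CPM (SD, n = 4) to 79.4 ± 19.9 CPM (SD, n = 5) (log2 fold change 3.22 ± 0.30 SE, adjusted p = 9.95e-07). The spindle proteins Tpx2, Kif23 and Cenpf rose by 3.45, 3.3 and 3.1, and the scaffold Anln, outside the list, by 3.26. Among replication genes, Mcm7 rose by 0.56, and Pcna (0.52) and Mcm6 (0.47) were not called. Mcm7, Mcm6, Pcna, Cdc20 and Cdk1 were named after their values were seen.

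Promoters of these genes often held a CCAAT box, and a smaller part also held a second short element. Both are given here as a description. The CCAAT box is bound by NF-Y, and the cell cycle homology region (CHR, core TTTGAA) is bound by the MuvB complexes that repress or activate mitotic genes. In RefSeq promoters of GRCm38.p6, the 250 bases before each start were searched on both strands, and CCAAT was found in 33.8% of 32851 promoters and TTTGAA in 16% of them. Of 36 promoters of 33 matched cell cycle genes, 28 (77.8%) held CCAAT and 9 (25%) held TTTGAA. Called genes had 30 of the 36 promoters, and 25 of these 30 held CCAAT. The last 160 bases before the start are shown for 4 genes with both elements, as examples picked after the calls were known; capitals mark CCAAT (or ATTGG on the other strand) and TTTGAA (or TTCAAA), and coordinates are GRCm38.p6.
Mki67, chr7:135716380-135716539, minus strand: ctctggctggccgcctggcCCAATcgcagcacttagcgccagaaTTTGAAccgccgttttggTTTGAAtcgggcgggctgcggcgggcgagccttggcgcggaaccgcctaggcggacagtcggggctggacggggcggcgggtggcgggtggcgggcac
Top2a, chr11:99024190-99024349, minus strand: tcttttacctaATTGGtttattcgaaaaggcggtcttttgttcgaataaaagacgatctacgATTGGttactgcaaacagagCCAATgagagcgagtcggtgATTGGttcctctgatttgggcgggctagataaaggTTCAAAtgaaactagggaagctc
Cdk1, chr10:69352913-69353072, minus strand: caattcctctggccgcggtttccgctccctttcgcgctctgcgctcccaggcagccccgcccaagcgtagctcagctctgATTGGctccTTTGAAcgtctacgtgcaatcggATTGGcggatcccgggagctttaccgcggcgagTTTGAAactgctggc
Cdc20, chr4:118437344-118437503, minus strand: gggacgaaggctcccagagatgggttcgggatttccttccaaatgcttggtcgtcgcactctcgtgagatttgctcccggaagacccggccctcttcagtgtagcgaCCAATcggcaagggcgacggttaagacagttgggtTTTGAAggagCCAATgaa
Cdk1, the mitotic kinase, rose by 2.74 (adjusted p = 0.000605) and Cdc20, the activator of the anaphase-promoting complex, by 2.72 (adjusted p = 1.86e-05).

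Replication-dependent histone genes, whose messengers lack a poly(A) tail and are retained by total-RNA libraries, were divided. Of 24 tested (67 listed), 10 rose and none fell in the reported fit (41.7% called, beside 20.5% of all genes), with a median of 1.04. A member could pass the filter through bleomycin libraries alone, which favours rises in this share. With the filter of 5 CPM in 4 libraries, 4 of 13 tested rose (median 0.40), and with no filter 18 of 57 (median 1.51). The linker histone Hist1h1d rose from 7.37 ± 1.15 CPM (SD, n = 4) to 39.9 ± 21 CPM (SD, n = 5) (log2 fold change 2.41 ± 0.33 SE, adjusted p = 5.01e-05). Without bleomycin 2, 4 of 17 tested rose and 2 fell, with a median of -0.03; without bleomycin 5, 4 of 17 rose. With the replicate block 8 rose and 1 fell. Histone paralogs are nearly identical, so reads may be shared among them.

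Targets of p53, the DNA-damage factor, rose in the same libraries. Of 25 tested (30 listed), 15 rose and none fell in the reported fit (60% called, beside 20.5% of all genes), and the median was 0.85. The rises numbered 10 without naive 2 and 12 with the replicate block. With the replicate block, and without bleomycin 4, 1 member fell. Cdkn1a, the cyclin-dependent kinase inhibitor p21 (ENSMUSG00000023067, chr17:29090976-29100727), stood at 17.1, 18.2, 12.9 and 18.8 CPM in naive 1 to 4 and 107, 110.4, 71.5, 57.9 and 62.9 CPM in bleomycin 1 to 5 (log2 fold change 2.29 ± 0.21 SE, adjusted p = 9.95e-07). Ccng1 rose from 51.9 ± 7.14 CPM (SD, n = 4) to 194 ± 49 CPM (SD, n = 5) (log2 fold change 1.9 ± 0.17 SE, adjusted p = 6.44e-07), and Phlda3, an AKT inhibitor, rose by 3.68 (adjusted p = 1.33e-05). Gtse1 and Psrc1 of this list also work in mitosis. Not all p53 targets followed: Mdm2, the ubiquitin ligase of p53, was at 0.36 (adjusted p = 0.151), and Perp, Rrm2b and Sesn1 had values of -0.24, -0.44 and -0.56 with no call. Bleomycin 1 and 2 were highest, at 1.2 and 1.25 in list level beside 0.68 to 0.93 in the others. Cdkn1a overlaps a gene model on the opposite strand, and no source used here says whether counting used strand.

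Matrix, laminin and integrin genes rose together. Of 30 tested matrix genes (44 listed), 19 rose and none fell in the reported fit, with a median log2 fold change of 0.84. With the replicate block 19 rose and 1 fell. Of 32 tested TGF-beta, integrin and YAP genes, 15 rose and 1 fell, with a median of 0.39. Called shares were 63.3% of matrix genes and 50% of TGF-beta, integrin and YAP genes, beside 20.5% of all genes. Basement membrane collagen led by abundance: Col4a1 rose from 544 ± 69.4 CPM (SD, n = 4) to 1129 ± 185 CPM (SD, n = 5) (log2 fold change 1.05 ± 0.14 SE, adjusted p = 4.04e-05). Col4a1 overlaps Col4a2 on the opposite strand, which rose by 0.81. The laminin-binding integrin subunits Itga3 and Itga6 rose by 1.08 and 1.65.

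Fibronectin rose from near the floor. Fn1 (ENSMUSG00000026193, chr1:71585520-71653200) stood at 2.35, 1.28, 3.3 and 2.38 CPM in naive 1 to 4 and 66.4, 171, 20.9, 23.8 and 17.9 CPM in bleomycin 1 to 5 (log2 fold change 4.72 ± 0.72 SE, adjusted p = 0.00014); with limma-voom it was not called (adjusted p = 0.0652). Bleomycin 2, which also held the highest fibroblast markers, was highest. Col1a1, a collagen of fibroblasts, stood at 3.02, 1.5, 0.30 and 0.596 CPM in naive 1 to 4 and 26.7, 52.3, 3.87, 9.9 and 7.76 CPM in bleomycin 1 to 5 (log2 fold change 3.89 ± 0.75 SE, adjusted p = 0.00112); it was not called by limma-voom (adjusted p = 0.144). Thrombospondin Thbs1, which can activate TGF-beta, rose by 1.6 (adjusted p = 1.26e-06). Without bleomycin 2, 19 matrix genes rose, and without bleomycin 1, 16 rose with a median of 0.67. The matrix protein Tgfbi fell by 1.01 (adjusted p = 0.00355).

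**Figure D3:**
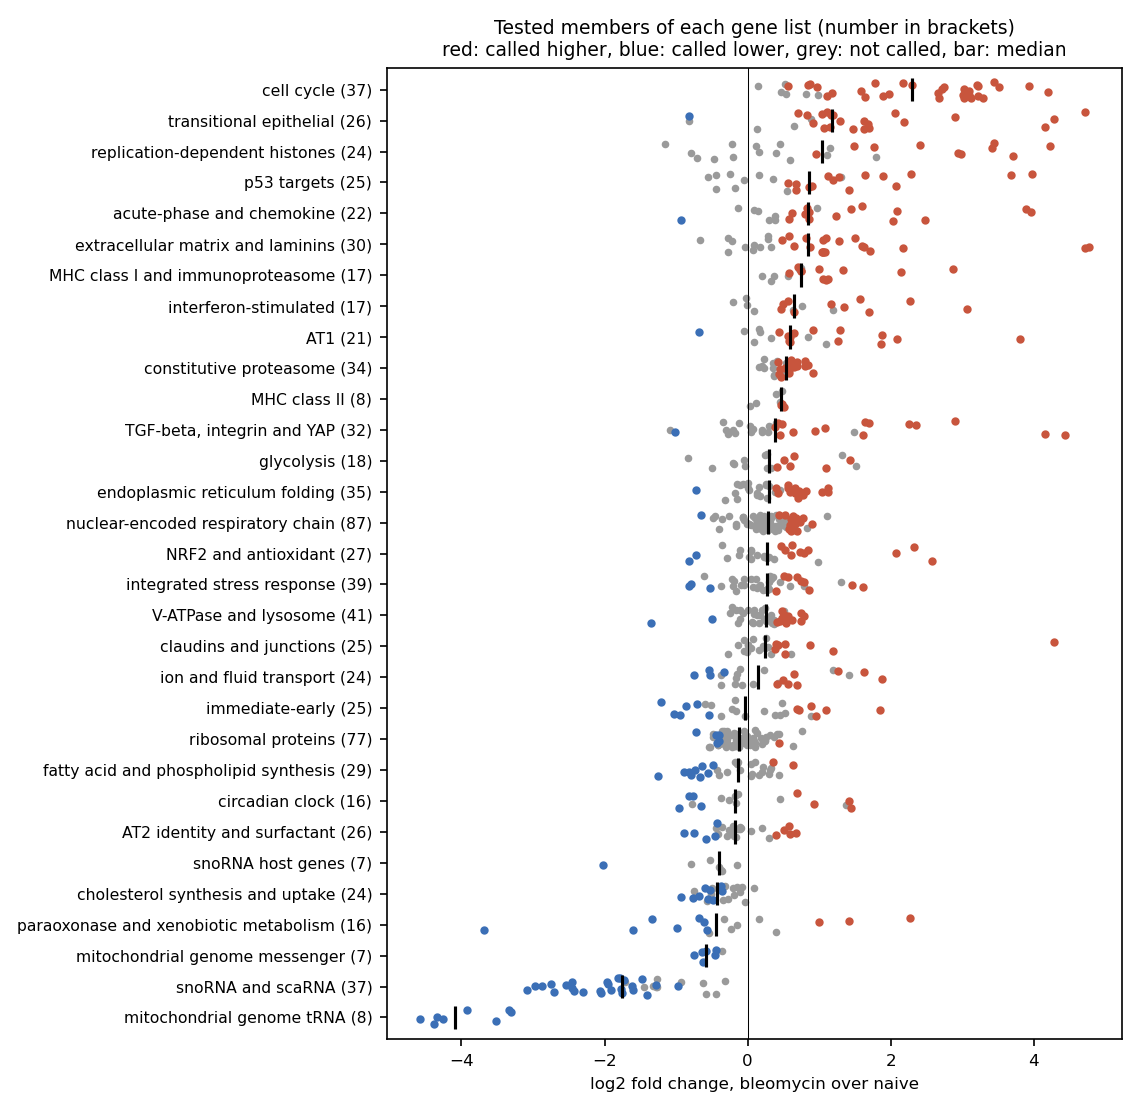
Each row is 1 gene list, ordered by its median, with 1 point per tested gene; the horizontal axis is the log2 fold change of bleomycin over naive, red and blue mark called genes, and the bar is the median. The median is 2.3 for cell cycle genes and -4.09 for mitochondrial tRNA genes.

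Innate defence genes were among the largest and most abundant rises. Of 22 tested acute-phase and chemokine genes, 14 rose and 1 fell (68.2% called, beside 20.5% of all genes), with a median of 0.84. Lcn2, lipocalin 2, which withholds iron-carrying siderophores from bacteria (ENSMUSG00000026822, chr2:32384633-32388252), stood at 178, 217, 165 and 184 CPM in naive 1 to 4 and 1059, 1536, 965, 687 and 966 CPM in bleomycin 1 to 5 (log2 fold change 2.49 ± 0.19 SE, adjusted p = 1.44e-07). All 5 bleomycin libraries lay above all 4 naive libraries. Lrg1, outside the acute-phase and chemokine list, is a glycoprotein of TGF-beta and vessel signalling. It rose from 78.7 ± 12.1 CPM (SD, n = 4) to 295 ± 45 CPM (SD, n = 5) (log2 fold change 1.9 ± 0.14 SE, adjusted p = 1.44e-07). Retnla, resistin-like alpha, induced by interleukin 4 and 13, rose from 2.49 ± 1.19 CPM (SD, n = 4) to 39.6 ± 21 CPM (SD, n = 5) (log2 fold change 3.97 ± 0.42 SE, adjusted p = 3.20e-06), and the interleukin 4 receptor subunit Il4ra rose by 1.61. Nfkbiz, an atypical inhibitor of nuclear factor kappa B, was the member that fell (-0.93, adjusted p = 0.000733).

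Genes of antigen presentation by MHC class I rose too. Of 17 tested class I and immunoproteasome genes, 11 rose and none fell by edgeR, with a median of 0.75. Called shares were 64.7% of class I, 37.5% of class II and 58.8% of interferon-stimulated genes, beside 20.5% of all genes. H2-K1 stood at 335, 320.1, 348 and 319.8 CPM in naive 1 to 4 and 759, 667, 853, 705 and 640.1 CPM in bleomycin 1 to 5 (log2 fold change 1.13 ± 0.12 SE, adjusted p = 2.85e-06). Its invariant partner B2m rose from 62 ± 10.01 CPM (SD, n = 4) to 156 ± 24 CPM (SD, n = 5) (log2 fold change 1.33 ± 0.14 SE, adjusted p = 3.74e-06). H2-K1, H2-D1, H2-Q6 and H2-Q7 are paralogs of very similar sequence, and how reads were divided among them is unknown. Of 8 tested class II genes 3 rose: Cd74 by 0.47, H2-Ab1 by 0.50 and H2-DMb1 by 0.49. The number of class II rises was 1 without bleomycin 3, naive 2 or naive 4, 5 without bleomycin 2 and 6 without bleomycin 1; H2-Ab1 lost its call under 3 of the 16 alternatives and H2-DMb1 under 5. Of 17 tested interferon-stimulated genes 10 rose, led among named genes by Usp18 (10 naive counts in all), Irf7 (2.27) and Oasl2 (1.7), while 17 listed genes fell below the filter. Only 5 interferon genes were called without bleomycin 2 and 6 without bleomycin 3.

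Folding enzymes of the endoplasmic reticulum (ER) rose in part. Of 35 tested members, 15 rose and 1 fell (45.7% called, beside 20.5% of all genes), with a median log2 fold change of 0.30. Calr, calreticulin, a lectin chaperone of glycoproteins (ENSMUSG00000003814, chr8:84841850-84846934), stood at 439, 419, 410.4 and 378 CPM in naive 1 to 4 and 808, 954, 800.3, 1260.5 and 652 CPM in bleomycin 1 to 5 (log2 fold change 1.12 ± 0.16 SE, adjusted p = 6.77e-05). Hspa5, the Hsp70 chaperone BiP (ENSMUSG00000026864, chr2:34771970-34777547), stood at 396, 499, 498 and 450.4 CPM in naive 1 to 4 and 790.1, 802, 737, 719.7 and 738 CPM in bleomycin 1 to 5 (log2 fold change 0.72 ± 0.11 SE, adjusted p = 0.000199). Both separated the groups with no overlap. The disulfide isomerase Pdia4 and the cochaperone Dnajb11 rose by 1.05 and 0.82. Herpud1, an ER degradation factor, fell by 0.72 (adjusted p = 0.00334), and the sensors and factors Xbp1, Atf6 and Dnajb9 were not called (-0.07, -0.14 and -0.18).

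The ER stress element, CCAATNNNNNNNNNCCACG on either strand, is bound by NF-Y and ATF6 and contains a CCAAT box. It was found in 37 of 32851 promoters (0.113%) and in 8 of 27 promoters of 26 matched ER folding genes (29.6%), of which 5 belonged to the 13 promoters of called genes. Dnajc3, Pdia6 and Syvn1 held it and were not called (0.14, 0.26 and 0.28). The stretches around it are shown for the 5 called genes, as the sequence they share; each is printed on the strand of its gene, capitals mark the element or its reverse complement, and coordinates are GRCm38.p6.
Hspa5, chr2:34772005-34772063, plus strand: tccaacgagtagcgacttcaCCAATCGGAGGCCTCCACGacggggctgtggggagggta
Calr, chr8:84847055-84847113, minus strand: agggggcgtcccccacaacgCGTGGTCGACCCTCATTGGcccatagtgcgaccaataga
Creld2, chr15:88819500-88819558, plus strand: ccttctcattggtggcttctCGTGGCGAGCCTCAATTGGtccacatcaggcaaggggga
Canx, chr11:50325780-50325838, minus strand: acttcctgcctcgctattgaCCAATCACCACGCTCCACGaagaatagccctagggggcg
Hsp90b1, chr10:86705513-86705676, minus strand: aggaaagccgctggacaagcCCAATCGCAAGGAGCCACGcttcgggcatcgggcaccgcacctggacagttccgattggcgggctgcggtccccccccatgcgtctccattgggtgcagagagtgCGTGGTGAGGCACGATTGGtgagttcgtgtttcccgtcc
Hsp90b1, which shows it on both strands, rose by 0.57, Creld2 by 0.77 and Canx by 0.43, less than Calr.

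Many proteasome subunit genes rose, and amino acid stress genes were divided. Of 34 tested constitutive proteasome genes, 19 rose and none fell by edgeR (55.9% called, beside 20.5% of all genes), with a median of 0.53. Psmc3 and Psmd2 rose by 0.85 and 0.81. The count was 11 without naive 1 or 3 and 10 without naive 4. Of 39 tested integrated stress response genes, 9 rose and 3 fell, a share of 30.8% beside 20.5% of all genes, with a median of 0.27. Psat1, of serine synthesis, rose from 4.47 ± 1.73 CPM (SD, n = 4) to 12.8 ± 5.59 CPM (SD, n = 5) (log2 fold change 1.47 ± 0.37 SE, adjusted p = 0.0088), a call lost with limma-voom (adjusted p = 0.0819). Aars, alanyl-tRNA synthetase, rose from 62.4 ± 3.59 CPM (SD, n = 4) to 105 ± 20.2 CPM (SD, n = 5) (log2 fold change 0.75 ± 0.14 SE, adjusted p = 0.000742). The master factor Atf4 (-0.22), Ddit3 (-0.05), Trib3 (-0.19) and Asns (0.22) were not called, and the stress-induced coactivator Nupr1 fell by 0.82 (adjusted p = 0.00119). Only 4 of these genes rose without naive 1 and 5 without naive 2.

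Cholesterol genes and part of lipid synthesis fell. Of 24 tested cholesterol genes, none rose by edgeR and 9 fell (37.5%, beside 9.31% of all genes), with a median log2 fold change of -0.43. Insig1, the sterol sensor that retains SREBP in the ER (ENSMUSG00000045294, chr5:28071363-28078662), stood at 113, 125, 90.1 and 107 CPM in naive 1 to 4 and 62.7, 46.6, 70.6, 52 and 54 CPM in bleomycin 1 to 5 (log2 fold change -0.93 ± 0.14 SE, adjusted p = 0.00012). The transcription factor Srebf2, which drives sterol synthesis genes, fell from 229 ± 7.78 CPM (SD, n = 4) to 159 ± 17.9 CPM (SD, n = 5) (log2 fold change -0.53 ± 0.11 SE, adjusted p = 0.0025). The count was 4 without naive 2 and 5 without naive 4.

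Calls among fatty acid and phospholipid genes were mostly lower. Of 29 tested, 2 rose and 9 fell, with a median of -0.14. In all 37.9% were called, beside 20.5% of all genes, of which 11.2% were higher and 9.31% lower. Acaca, acetyl-CoA carboxylase 1, fell by 0.74 (adjusted p = 0.000287), as did the choline kinase Chka (log2 fold change -0.82) and the glycerol acyltransferase Gpam (-0.64), while the elongase Elovl5 rose by 0.64. Fasn and the desaturase Scd1, both abundant, were at 0.31 and 0.44 and not called. The rises numbered 5 without bleomycin 1, and 1 without bleomycin 3, naive 1, naive 3 or naive 4 and with the replicate block.

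Genes that metabolise xenobiotics had some of the deepest falls. Of 16 tested, 3 rose and 7 fell (62.5% called, beside 20.5% of all genes), with a median of -0.44. Pon1, an esterase that protects lipids from oxidation (ENSMUSG00000002588, chr6:5168090-5193946), stood at 28.8, 52.3, 37.5 and 36.4 CPM in naive 1 to 4 and 2.12, 2.71, 2.17, 6.19 and 2.69 CPM in bleomycin 1 to 5 (log2 fold change -3.68 ± 0.28 SE, adjusted p = 1.44e-07). Aox3, an aldehyde oxidase, stood at 545, 473, 566 and 532 CPM in naive 1 to 4 and 142, 114, 190.0, 197 and 232 CPM in bleomycin 1 to 5 (log2 fold change -1.6 ± 0.16 SE, adjusted p = 2.45e-06). Neither gene overlapped between groups. Pon3 and the carboxylesterase Ces1d fell (log2 fold changes -0.56 and -0.98); Pon2 was not called (-0.33). In the other direction, Cyp2s1 rose by 2.27, the retinaldehyde dehydrogenase Aldh1a1 by 1.41 and Ephx1 by 1.0. The number of falls was 4 without naive 2. The carbonyl reductase Cbr2, an abundant lung enzyme outside the lists, fell from 1194 ± 104 CPM (SD, n = 4) to 596 ± 208 CPM (SD, n = 5) (log2 fold change -1.0 ± 0.20 SE, adjusted p = 0.00181).

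Antioxidant genes of the NRF2 pathway rose in 10 of 27 and fell in 2, with 6 rises without bleomycin 2. Called shares were 44.4% of antioxidant, 50% of clock and 48% of immediate-early genes, beside 20.5% of all genes. Gpx1, a glutathione peroxidase, rose by 0.73 and the peroxiredoxin Prdx1 by 0.62, while catalase (Cat) fell by 0.82 (adjusted p = 0.00046). Of 16 tested clock genes 4 rose and 4 fell: Per2 rose from 14.3 ± 2.42 CPM (SD, n = 4) to 39 ± 8.3 CPM (SD, n = 5) (log2 fold change 1.44 ± 0.19 SE, adjusted p = 4.52e-05) and Arntl, whose product drives Per2, fell by 0.82. Without naive 4, 1 clock gene rose and 2 fell, and 2 rose without naive 1 or 3; the labels do not state the time of day of collection. Immediate-early genes, which respond quickly to many stimuli, split 6 up and 6 down of 25; Jun, Fos and the phosphatase Dusp1 fell (log2 fold changes -0.86, -0.95 and -1.21), and Fosl2 rose by 0.89. Without naive 1 or 2, 3 immediate-early genes rose.

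Transport, junction and lysosomal genes held more rises than falls. In these 3 lists 50%, 32% and 34.1% of tested genes were called, beside 20.5% of all genes. Of 24 tested ion and fluid transport genes 8 rose and 4 fell: the sodium channel subunits Scnn1b and Scnn1g rose by 1.26 and 1.89 and the chloride channel Ano1 by 1.63, while Nedd4l, the ligase that removes sodium channels, fell by 0.53. The subunit Scnn1a (0.49) was called in the reported fit and not without naive 1, 3 or 4 (adjusted p = 0.0577 to 0.0754), and Cftr was not called (-0.18). The anion exchanger Slc26a4 (pendrin), outside that list, rose from 25.5 ± 5.86 CPM (SD, n = 4) to 124 ± 20.7 CPM (SD, n = 5) (log2 fold change 2.29 ± 0.17 SE, adjusted p = 1.44e-07). Of 25 tested junction genes 8 rose, among them the desmoglein Dsg2 (0.87) and connexin 43 gene Gja1 (1.19), and 5 without naive 3 or 4. Of 41 lysosomal genes 12 rose and 2 fell; the cathepsins Ctsz, Ctsb, Ctsa and Ctsd rose by 0.79, 0.75, 0.75 and 0.62, and the pump subunit Atp6v1c2 fell from 229.7 ± 10.6 CPM (SD, n = 4) to 89.5 ± 12.3 CPM (SD, n = 5) (log2 fold change -1.36 ± 0.12 SE, adjusted p = 5.47e-07). The lysosomal count was 7 without naive 4. Of 18 glycolytic genes 6 rose (33.3% called), with Eno1 at 1.44 and Gapdh at 1.1.

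Respiratory chain genes of the nucleus were called about as often as all genes, mostly higher. Most tested messengers of the mitochondrial genome were called lower. Of 87 tested nuclear-encoded respiratory chain genes, 16 rose and 1 fell (19.5% called, beside 20.5% of all genes), with a median of 0.29; the synthase subunit Atp5b rose by 0.61. Of 7 tested messengers of the mitochondrial genome none rose by edgeR and 6 fell (85.7% called), with a median of -0.58. mt-Nd2, a complex I subunit, fell from 1243 ± 271 CPM (SD, n = 4) to 737 ± 64.1 CPM (SD, n = 5) (log2 fold change -0.75 ± 0.14 SE, adjusted p = 0.000899). The number of falls was 3 without naive 2, and the count of rises among nuclear genes was 25 without bleomycin 1. The share of all counts from the mitochondrial genome was 10.1% ± 0.550 (SD, n = 4) in naive and 9.06% ± 1.5 (SD, n = 5) in bleomycin libraries, a difference that did not pass an exact two-sided permutation test (p = 0.317, adjusted p = 0.317 over 4 shares; the smallest p possible with these groups is 0.0159). Of 77 tested ribosomal protein genes 1 was called higher and 5 lower (7.79% called, beside 20.5% of all genes), with a median of -0.12. With 1 library left out, 0 to 6 were higher and 2 to 10 lower: without bleomycin 1, 6 were higher and 2 lower.

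Small nucleolar, small nuclear and mitochondrial transfer RNAs were mostly lower. Of 37 tested small nucleolar and Cajal body RNAs (147 listed), 26 fell and none rose by edgeR. The median log2 fold change was -1.75. In all 70.3% were called, beside 20.5% of all genes. Snord87, a box C/D RNA that guides ribosomal RNA methylation (ENSMUSG00000093178, chr1:9942463-9942549), stood at 99, 36.5, 59.1 and 53.1 CPM in naive 1 to 4 and 9.79, 12.1, 6.5, 16.4 and 9.34 CPM in bleomycin 1 to 5 (log2 fold change -2.54 ± 0.27 SE, adjusted p = 3.37e-06). Snora7a and the Cajal body RNA Scarna2 fell too (log2 fold changes -2.97 and -1.28). The groups did not overlap in Snord87. Without naive 1, 14 of the list were called lower. By annotation type, 42 of 58 small nucleolar RNAs, 10 of 13 small nuclear RNAs and all 8 tested mitochondrial tRNAs (22 listed) were called lower. Of 13 microRNA genes 2 were called lower and 1 higher. A gene could pass the filter through naive libraries alone, which favours falls in these shares. With no filter, 9 of 17 mitochondrial tRNAs were called lower, with a median of -3.49. Genes with an exon length of 1 to 200 bases were called lower in 71 of 103 (68.9%, median -1.77; none is protein-coding), beside 8.27% of protein-coding genes. Other non-coding types leaned lower as well. Of 69 long intergenic RNAs 60 lay below 0 (median -0.66), as did 53 of 65 antisense (-0.69) and 19 of 19 sense-intronic genes (-1.035). Called lower were 14.5%, 20% and 15.8% of these types, beside 9.31% of all genes. Of 10 rRNA genes 7 were called lower (median -2.17), but in none of the 10 did bleomycin libraries lie wholly below naive libraries. Such separation was seen in 30 of 58 small nucleolar and 3 of 13 small nuclear RNAs, beside 9.35% of all genes.

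Shares of whole classes were compared over libraries. Small nucleolar RNA took 0.131% ± 0.0547 (SD, n = 4) of counts in naive and 0.0414% ± 0.0059 (SD, n = 5) in bleomycin libraries, with no overlap between groups (exact two-sided permutation p = 0.0159, the smallest possible; adjusted p = 0.0636 over 4 shares, which does not pass 0.05). Taken outside ribosomal-RNA-like genes, the difference was -0.109 percentage points, with the same exact permutation p of 0.0159 (adjusted p = 0.0477 over 3 shares); the adjusted values differ by the number of shares. Of 7 tested genes that host these RNAs in their introns (13 listed), Snhg11 was the 1 called (14.3%, beside 20.5% of all genes). Snhg11 fell from 178 ± 27 CPM (SD, n = 4) to 44 ± 9.18 CPM (SD, n = 5) (log2 fold change -2.02 ± 0.16 SE, adjusted p = 1.44e-07). The median of the 7 host genes was -0.40. In 3 of 7 the bleomycin libraries lay wholly below the naive libraries, beside 9.35% of all genes. Naive libraries detected 17108 to 19763 genes with at least 1 count and bleomycin libraries 13940 to 17112, and the part of this in the falls of short RNAs was not tested. Naive libraries had the higher share of ribosomal-RNA-like counts by mean, 14.7% beside 11.5% (exact permutation p = 0.270, adjusted p = 0.317).

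**Figure D4:**
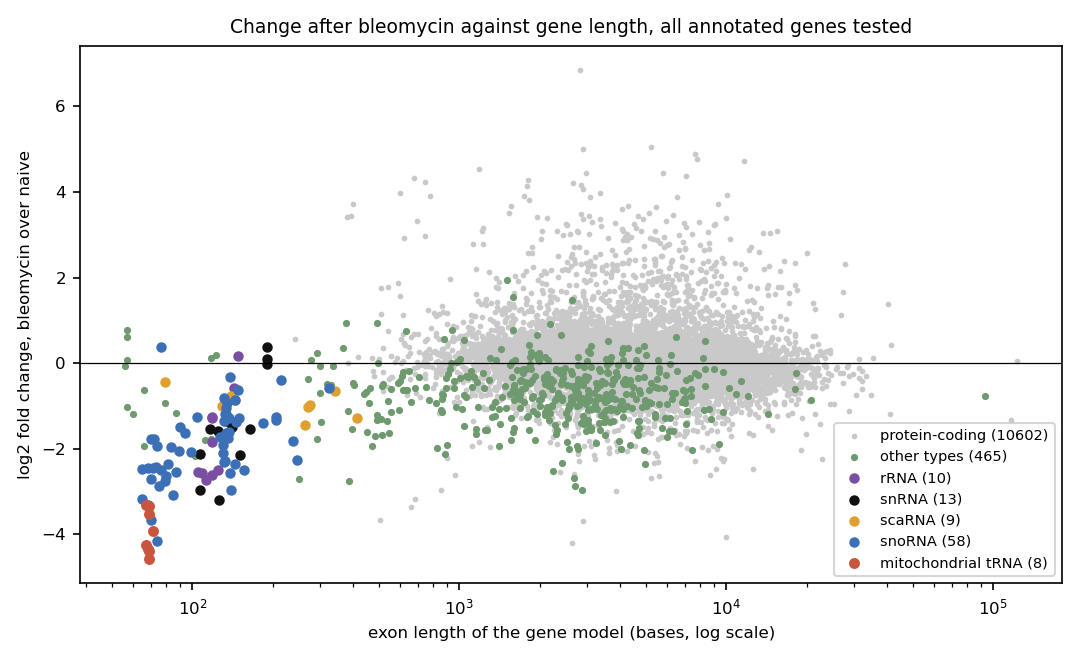
Each point is an annotated gene that was tested, with the exon length of its model in bases on a log axis and the log2 fold change of bleomycin over naive on the vertical axis; colours mark annotation types and the legend gives their numbers. Of the 103 genes of 1 to 200 bases, 94 lie below 0.

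Of the other genes named by size or p, several sit outside the lists. St8sia6, a sialyltransferase, was at 1.34, 0, 1.2 and 0.596 CPM in naive 1 to 4 and 43.6, 35.4, 9.76, 11.4 and 10.1 CPM in bleomycin 1 to 5, with 10 naive counts in all (log2 fold change 4.89 ± 0.67 SE, adjusted p = 4.67e-05). Itm2a, a membrane protein, rose from 2.93 ± 1.61 CPM (SD, n = 4) to 43 ± 19.5 CPM (SD, n = 5) (log2 fold change 3.91 ± 0.37 SE, adjusted p = 1.15e-06), and Slfn9 rose by 3.31. Among falls, Slc7a2, a transporter of cationic amino acids such as arginine, went from 33.6 ± 5.05 CPM (SD, n = 4) to 5.92 ± 1.62 CPM (SD, n = 5) (log2 fold change -2.48 ± 0.22 SE, adjusted p = 7.71e-07). Cst8, a cystatin, Abca17, Auts2 and Bex2 had log2 fold changes of -2.96, -2.32, -2.23 and -2.22. Mgll, the lipase of monoacylglycerols, and Ppp1r1b, a phosphatase inhibitor, followed at -2.08 and -1.94. The most abundant large falls besides Cbr2 and Aox3 were Arhgef38 (-1.48), Cdc42bpa (-1.2) and Acoxl (-1.46).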

How the data were processed

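Total RNA of sorted AT2 cells was sequenced in 9 libraries (4 naive, 5 bleomycin) prepared with a stranded Pico total-RNA kit (SMARTer, v2) from an input of 0.35 ng and run on a NextSeq 500, per the labels' protocols. The authors deposited raw counts of reads for each of 43430 Ensembl gene IDs. Per the submitters' processing notes, the tools were bcl2fastq 2.19.1, FastQC, Trimmomatic 0.36, STAR 2.6.0 and HTSeq 0.11.2 on build mm10; their settings, the annotation and the use of strand are not given there.

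Gene symbols, types and positions came from GENCODE M21 (GRCm38) by gene ID, and 42546 IDs had a symbol. In edgeR 4.0.16 (R 4.3.3), low genes were removed by filterByExpr with a minimum count of 10 and a total of 15, TMM scaling was applied, and bleomycin was set against naive, with no other term, by the two-sided quasi-likelihood test. Adjustment was by Benjamini-Hochberg across 11223 genes (threshold 0.05). CPM are counts relative to the scaled library size. The SE was derived from the log2 fold change and the F statistic. Shares of gene classes use all counts of a library. Total counts per library limit precision for genes of few counts, and intervals of counting error are not given since reads carry no molecular identifiers here. Same-numbered libraries of the 2 groups did not deviate together (correlations -0.039 to 0.047), so the numbers were not treated as pairs. On simulated counts with 11223 genes, edgeR called 112 of 191 changes of 1 on the log2 scale with 8 false calls of 120, called 12 of 192 changes of 0.5 with 2 false calls of 14, and called 0 genes where nothing changed.

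Named genes were, among called genes with groups that did not overlap and a mean of at least 20 CPM in the higher group, the 10 largest rises and falls, and, for rises and falls separately, the 5 of lowest p and the 5 most abundant with a change of at least 1. Without those conditions, up to 4 called members per direction of each list, by lowest p, and a panel of 47, called or not, were added. Members named outside it (Foxa2, Cebpa, Perp, Sesn1, Rrm2b, Rtkn2, Cav1, Cldn18, Col4a2, Xbp1, Atf6, Dnajb9, Dnajc3, Pdia6, Syvn1, Canx, Creld2, Hsp90b1 and the cell cycle genes marked in the text) were chosen after their values were seen. The members, lists, rule and tests were chosen with earlier results of these data known. Promoters came from RefSeq (GRCm38.p6). Alternatives were DESeq2 1.42.0, limma-voom (limma 3.58.1), RLE scaling, no filter, a filter of 5 CPM in 4 libraries, removal of ribosomal, mitochondrial and small nucleolar RNA genes, a replicate block and each library left out. Some genes of the lists are not reported here by name.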

Additional observations from a re-analysis of the deposited data

Results flagged for a closer look

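In 25 of 402 groups screened (each named gene in each group), 1 library lay far from the other libraries of its group by Dixon's test at 95%. Chance flags about 1 in 20 groups. The causes were not tested. Bleomycin 4 was the highest of its group in Aars (141 CPM, others 90.6 to 99.8 CPM) and Pon1 (6.19 CPM, others 2.12 to 2.71 CPM). Bleomycin 4 was the lowest of its group in mt-Cytb (1215 CPM, others 1781 to 1981 CPM) and mt-Nd4 (477 CPM, others 655 to 707 CPM). Naive 2 was the highest of its group in Bhlhe40 (118 CPM, others 75.8 to 79.3 CPM), Dsg2 (21.8 CPM, others 17.8 to 18 CPM), Hmgcs1 (255 CPM, others 203 to 210 CPM) and Psat1 (7.05 CPM, others 3.35 to 3.9 CPM). Naive 2 was the lowest of its group in Agrn (64.3 CPM, others 69.7 to 70.1 CPM). Naive 4 was the highest of its group in Atp8a1 (1517 CPM, others 1451 to 1462 CPM). Bleomycin 2 was the highest of its group in Ccng1 (279 CPM, others 159 to 185 CPM), Cldn4 (26.7 CPM, others 5.57 to 8.99 CPM), Hopx (24.9 CPM, others 13.8 to 16.7 CPM) and Tpx2 (38.4 CPM, others 13.3 to 20.1 CPM). Bleomycin 2 was the lowest of its group in Atp8a1 (704 CPM, others 1027 to 1134 CPM). Naive 1 was the highest of its group in C3 (392 CPM, others 371 to 375 CPM), Prc1 (10.4 CPM, others 9.83 to 9.91 CPM) and Sftpc (42987 CPM, others 36814 to 37372 CPM). Naive 1 was the lowest of its group in Ephx1 (29.5 CPM, others 35.2 to 36.1 CPM), Lrg1 (60.7 CPM, others 83.5 to 86.5 CPM) and Lrp2 (1078 CPM, others 1305 to 1345 CPM). Bleomycin 5 was the highest of its group in Fabp12 (13.8 CPM, others 3.97 to 6.81 CPM). Naive 3 was the lowest of its group in H2-DMb1 (27.3 CPM, others 30.7 to 31.2 CPM). Bleomycin 1 was the highest of its group in Lrp2 (2183 CPM, others 1799 to 1876 CPM) and Nfkbiz (56.3 CPM, others 30.9 to 36.4 CPM).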

How the results depend on the processing

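The number of genes called was 2304 by edgeR and stayed within 1.5 times of it under all 16 alternatives: 2557 with DESeq2, 2304 with RLE scaling, 2202 with limma-voom, 2589 with no filter, 2140 with the filter of 5 CPM in 4 libraries and 2226 without ribosomal, mitochondrial and small nucleolar RNA genes. Each call shared with the reported fit kept its direction. Limma-voom moved the share of calls that were higher to 46.5% from 54.6%. Leaving out 1 library gave 1554 calls (without naive 4) to 2584 (without bleomycin 1), 874 to 1361 higher and 680 to 1223 lower, of which 680, without naive 4, lies beyond 1.5 times the reported 1045. With the replicate block, 2187 genes were called (1137 higher, 1050 lower), 1988 of them shared with the reported calls; the libraries share only a number. The small nucleolar RNA share differed by -0.109 percentage points with counts outside ribosomal-RNA-like genes as denominator (adjusted p = 0.0477 over 3 shares), against -0.0895 (adjusted p = 0.0636 over 4 shares); the exact permutation p was 0.0159 for both. Of 184 named genes that were called, 155 kept the call under all 16 alternatives and 29 lost it under 1 or more. Among named genes, those whose values changed sign were not called: the log2 fold change of Ddit3 at 0.0898 with the replicate block and at -0.176 (without bleomycin 4) to 0.104 (without bleomycin 5) with 1 library left out, the log2 fold change of Asns at -0.0225 (without naive 4) to 0.654 (without naive 2), and the log2 fold change of Sftpb at -0.169 (without bleomycin 5) to 0.0236 (without bleomycin 1). The median of the histone list changed sign, from 1.04 (24 members tested) to -0.03 (17 tested), without bleomycin 2. That of the immediate-early list, -0.04, was 0.211 with DESeq2, 0.245 with no filter, 0.018 with the replicate block, and 0.0020 to 0.0263 without bleomycin 3, bleomycin 5 or naive 4. These medians were taken over the members tested in each setting, which can differ from those of the reported fit. The cause of the changes of sign was not tested. Depth limits genes of few counts: of the 43430 IDs, 11223 were tested.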
